A study of Caenorhabditis elegans with 2 samples.

Results

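The linker histone genes of Caenorhabditis elegans were described on 2 Affymetrix arrays, 1 from worms exposed to anatase and 1 from worms without it. The members were the 8 genes hil-1, hil-2, hil-3, hil-4, hil-5, hil-6, hil-7 and his-24, read by the 12 probe sets whose platform annotation gives that gene and no other. The whole table held 22548 probe sets, and those with 1 gene named 17118 genes. The family was picked because hil-6 read much lower after exposure on these same arrays, so the member values below, from that same comparison, are a description and support nothing beyond it. All 8 annotated gene numbers matched the same symbol in the RefSeq gene table.

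Both groups were synchronized wild-type N2 worms, the standard laboratory strain, grown on bacterial lawns before use. The anatase group was kept in the dark with anatase nanoparticles, a crystal form of titanium dioxide, at 500 µg/ml in a liquid worm medium, and the control group was labelled as having no exposure. The labels give no age, sex ratio or length of exposure, and they call both arrays replicate 3. With 1 array per group there was no replicate error and no test was made, so no difference has a replicate check, and precision is limited by how few arrays there are. Because RNA came from whole populations of worms, fewer cells of a type and less RNA per cell cannot be told apart.

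Linker histones, also called H1 histones, bind the DNA that enters and leaves the nucleosome, the spool of core histones around which DNA is wound, and help to pack nucleosomes into denser chromatin. The nematode genome carries several such genes that are not part of the clusters of core histone genes, and their products share a globular domain and a tail rich in lysine. his-24, the most studied of them, acts in silencing of chromatin in the germline, while the divergent product of hil-1 has been found at filaments in the cytoplasm.

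hil-6, a linker histone gene whose particular role is not well known, had an intensity of 32.2 on the anatase array and 250.3 on the control array. The anatase signal was thus 12.9% of the control signal, a ratio of 7.77 from control to anatase. On the scale of log2(intensity + 16), used below for all differences and always as anatase minus control, the difference was −2.47. Only 3 other genes of the 13606 bright enough to be compared lay lower, a position that follows from the choice of the family. A gene was compared if it was at least as bright, on the array where it was brighter, as the 25th percentile of that array, which is an intensity of 25.2 on the anatase array and 31.1 on the control array.

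The low value of hil-6 rested on 1 probe set, not of the types that may also bind related transcripts. Its anatase intensity stood near the dim end of the array, where 29.2% of probe sets were dimmer, whereas 61.7% of probe sets were dimmer than its control intensity. The deposited table carries no detection calls, so whether 32.2 lay above background is unknown and the size of the ratio is not well fixed. The log2 difference was −2.92 if 1 was added to each intensity in place of 16, and −1.71 if 64 was added.

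**Figure D1:**
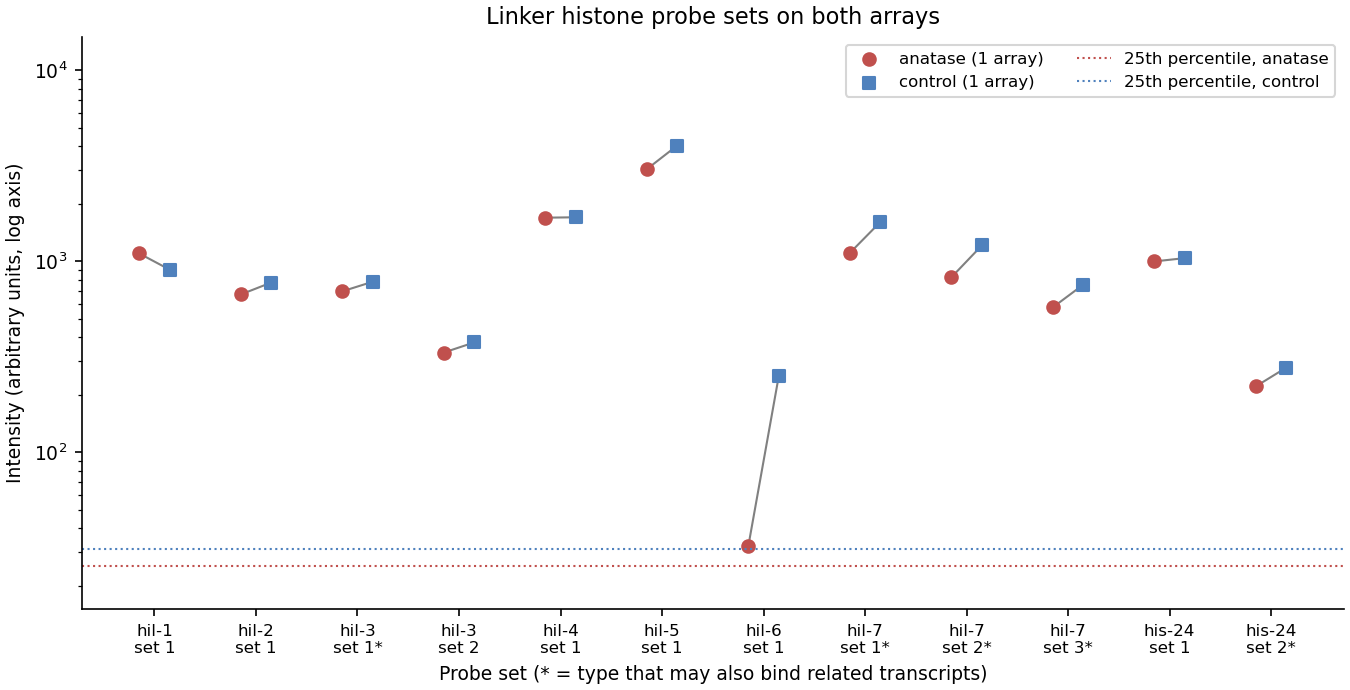
Intensity of each linker histone probe set (log axis, arbitrary units), with red circles for the anatase array and blue squares for the control array, joined by a line for each probe set. Dotted lines mark the 25th percentile of each array, and the anatase value of hil-6, at 32.2, lies just above its line while every other linker histone value is above 200.

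Of the other members, hil-7 and hil-5 lay lowest. hil-7 was read by 3 probe sets. They had intensities of 1105, 823.8 and 573.8 on the anatase array, against 1605, 1210 and 754.8 on the control array. All 3 lay lower on the anatase array, with log2 differences of −0.53, −0.55 and −0.39, and their mean was −0.49. Each of these 3 is of a type that may also bind related transcripts, and they share the same RNA, so they are not replicates of the exposure.

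hil-5 had an intensity of 3036 on the anatase array and 4039 on the control array. Its log2 difference was −0.41, from 1 probe set that was among the brightest of the array. The probe sets dimmer than it made up 95.1% of the anatase array and 96.4% of the control array.

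hil-2, hil-3 and his-24 read slightly lower on the anatase array. hil-2 had an intensity of 669.8 on the anatase array and 773.2 on the control array, a log2 difference of −0.20. hil-3 was read by 2 probe sets, which had intensities of 695.7 and 332.5 on the anatase array, against 781.0 and 375.6 on the control array. Both sets gave nearly the same log2 difference, −0.16 and −0.17, but the brighter is of a type that may also bind related transcripts.

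his-24, which encodes the linker histone known for germline silencing, was read by 2 probe sets that differed from each other. The brighter had an intensity of 998.0 on the anatase array and 1039 on the control array, a log2 difference of −0.06. The dimmer, of a type that may also bind related transcripts, had 221.3 on the anatase array and 277.5 on the control array, a log2 difference of −0.31. The gene value of −0.18 is the mean of both, and the brighter set alone, not of such a type, lay close to 0.

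hil-4 had an intensity of 1692 on the anatase array and 1700 on the control array, a log2 difference of −0.01 that turned to 0.05 when both arrays were centred to equal medians. hil-1, the gene for the divergent linker histone found at cytoplasmic filaments, was the only member that read higher on the anatase array in the deposited scaling. It had an intensity of 1099 on the anatase array and 903.7 on the control array, a log2 difference of 0.28. The 8 members thus ran from −2.47 for hil-6 to 0.28 for hil-1, and without hil-6 from −0.49 to 0.28.

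All 8 members were bright enough to be compared. On the anatase array 1 member lay at least 2-fold lower, hil-6, and 0 lay at least 2-fold higher. Among all 13606 genes compared, 3.07% lay at least 2-fold lower and 1.66% at least 2-fold higher. That balance depended on the scaling: 418 genes lay lower and 226 higher as deposited, whereas centring gave 361 lower and 253 higher, loess gave 304 lower and 289 higher, and quantile normalization gave 309 lower and 291 higher. By sign alone 7 of the 8 members lay lower, where 53.2% of all genes compared did, and 1 lay higher, where 46.8% did. With both arrays centred to equal medians 6 of the 8 lay lower. Nothing is read from these counts, since the family was chosen on this comparison. The median over the 8 members was −0.19, and −0.18 without hil-6, beside −0.02 over all genes compared.

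The width of the differences depended on brightness, so the members were set beside genes of like brightness. Genes compared were put in 4 equal groups by their mean over both arrays. hil-6 fell in the second dimmest group, where the middle 95% of genes lay between −0.83 and 0.64. It was the lowest of the 3401 genes in that group, which again follows from the choice of the family. Its anatase intensity alone stood near the dim end, and in the dimmest group the limits were wider, −1.55 and 1.26. hil-3 and his-24 fell in the second brightest group, with limits of −0.67 and 0.55. hil-1, hil-2, hil-4, hil-5 and hil-7 fell in the brightest, with limits of −0.51 and 0.46. In the second brightest group 47.1% of genes lay lower, with a median of 0.02, and in the brightest 46.9%, with a median of 0.01. Nothing is read from the signs of the members here either.

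All 7 members other than hil-6 lay inside the limits of their own groups. hil-7 lay closest to the lower limit: 94 of the 3402 genes in the brightest group lay as low or lower, hil-7 itself included, and 143 did for hil-5. The technical spread, taken as the SD of 1 probe set in genes read by exactly 2, was 0.18 log2 units in the brightest group (651 genes), 0.24 in the second brightest (692 genes) and 0.39 in the group of hil-6 (641 genes). The differences of hil-3, his-24 and hil-4 were smaller than that spread. Those of hil-6, hil-7, hil-5, hil-1 and, by a little, hil-2 were larger. For hil-6 this follows from the choice of the family, and in the dimmest group the spread was 0.51. This spread is for 1 probe set, whereas the values of hil-3 and his-24 are means of 2 and that of hil-7 of 3. A mean would have a narrower spread, so for these genes the comparison is only rough. The spread comes from probe sets within 1 pair of arrays and holds no variation between cultures of worms.

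**Figure D2:**
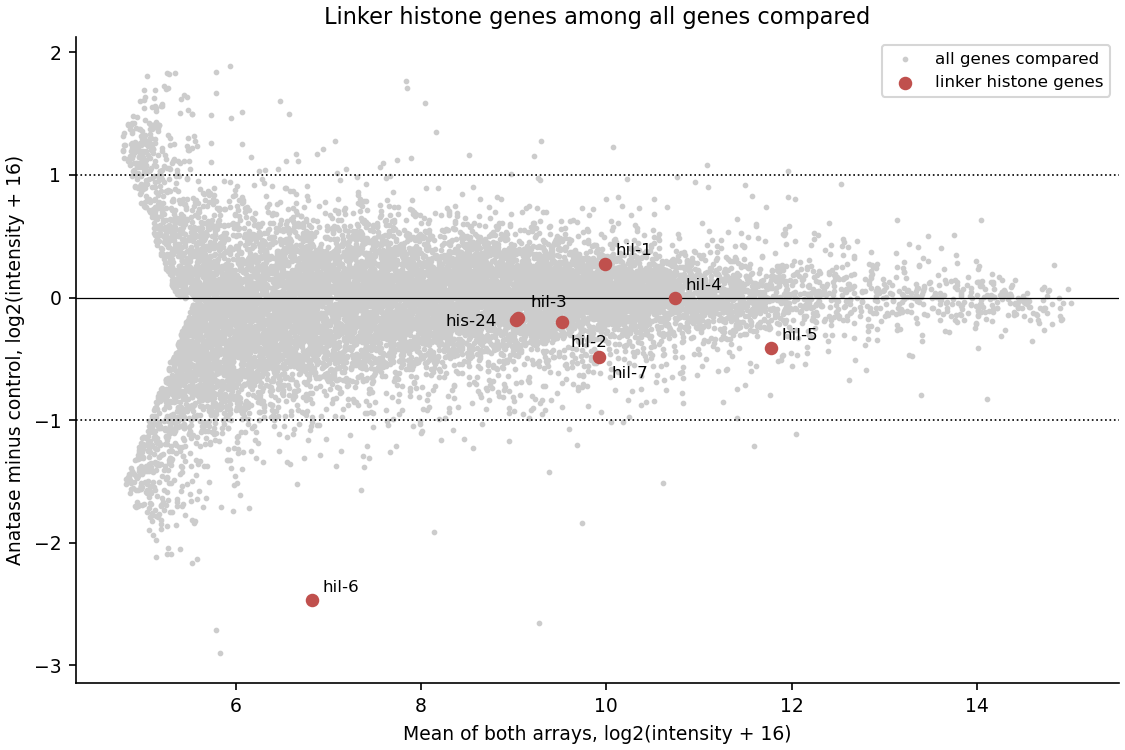
Log2 difference (anatase minus control) against the mean log2(intensity + 16) of both arrays for all 13606 genes compared in grey, with the 8 linker histone genes in red; dotted lines mark 2-fold. hil-6 stands apart at −2.47, and the other 7 members lie between −0.49 and 0.28 within the cloud of genes as bright as they are.

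The scaling of the arrays moved the larger differences little, but it mattered for the small ones. Centring put hil-2 at −0.15, hil-3 at −0.11 and his-24 at −0.13, against −0.20, −0.17 and −0.18 as deposited. Centring, a loess correction and quantile normalization put hil-6 between −2.41 and −2.36. The sign turned for 1 member, hil-4, with centring. hil-7 had no value when probe sets that may also bind related transcripts were left out, and his-24 then stood at −0.06.

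**Figure D3:**
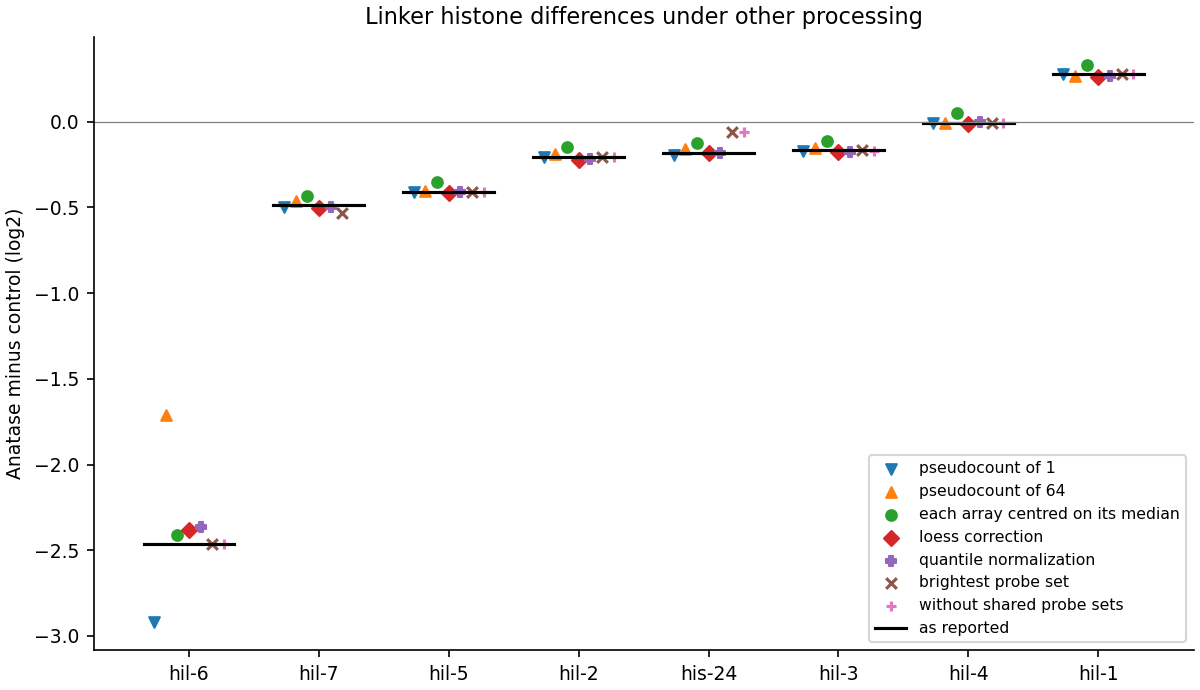
Log2 difference (anatase minus control) of each linker histone gene as reported (black bar) and under other pseudocounts, scalings and choices of probe sets (symbols). hil-6 spans −2.92 to −1.71, set by the pseudocount, and the others stay within narrow ranges, with hil-7 missing without shared probe sets.

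Core histones, the proteins of the spool itself, were the first group set beside the linker histones. Of 67 core histone genes listed, 19 were read by a probe set of their own, since most copies are near-identical. Of these 19, 8 lay lower and 11 higher on the anatase array, 0 lay past 2-fold in either direction, and the median difference was 0.04. For 15 of the 19 only probe sets that may also bind related transcripts were present, and without such sets the median was −0.11. his-67 lay lowest, at −0.81, with intensities of 32.2 on the anatase array and 68.4 on the control array. These raw intensities differ by more than 2-fold, unlike the log2 difference. his-38 lay highest, at 0.45, his-1, an H4 gene, stood at 0.40 and his-39 at −0.22. A further 23 probe sets name several core histones and no other gene, and they had a median of −0.07, with 16 lower and 7 higher and 0 past 2-fold. Those sets read near-identical copies, so they are not separate observations. Beside the counts of this and the following chromatin lists, 53.2% of all genes compared lay lower and 46.8% higher. Past 2-fold, 3.07% lay lower and 1.66% higher. Nothing is read from the signs in these lists.

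Histone variants, which replace core histones at particular places, were set beside the linker histones next. Of the 9 listed, 8 were compared, with 6 lower and 2 higher, 0 past 2-fold and a median of −0.07. his-71 and his-72, which encode replacement histones of the H3 type, stood at 0.07 and −0.10. htz-1, for the variant of H2A that marks promoters, stood at −0.06, and hcp-3, for the centromeric form of H3, at −0.29. his-70 had an intensity of 584.5 on the anatase array and 323.8 on the control array, a log2 difference of 0.82. his-73 stood at −0.89 with dim values of 15.2 on the anatase array and 41.9 on the control array, the only one on which it reached the brightness limit. Its raw intensities differ by more than 2-fold, but its log2 difference does not reach 2-fold.

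High mobility group proteins bend or bind DNA between and around nucleosomes. Of 8 such genes 7 were compared, 2 lower and 5 higher, 0 past 2-fold, with a median of 0.23. hmg-5, a homologue of a factor that packs mitochondrial DNA, stood at 0.45, with an intensity of 1002 on the anatase array and 727.3 on the control array. hmg-12 stood at 0.34, hmg-3, a subunit of the chromatin complex FACT, at 0.29 and hmg-11 at 0.23.

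Silencing factors, several of which have been linked to his-24, lay close to equal signal. Of 12 listed 11 were compared, 4 lower and 7 higher, 0 past 2-fold, with a median of 0.02. The heterochromatin protein genes hpl-1 and hpl-2 stood at −0.30 and 0.23, and sir-2.1, a deacetylase gene, at 0.05. mes-3 and mes-2, subunits of the complex that methylates histone H3 in the germline, stood at 0.27 and 0.22.

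Genes that supply or load histones, and genes of DNA replication, the phase in which core histones are made, were centred near equal signal too. Of 12 supply genes 11 were compared, 6 lower and 5 higher, with 1 at least 2-fold higher and a median of −0.03. That gene was asfl-1, of the ASF1 chaperone type, with an intensity of 87.3 on the anatase array and 27.4 on the control array, a log2 difference of 1.25. Its relative unc-85 stood at 0.28, the chaperone gene nasp-2 at −0.30 and the chromatin assembly gene chaf-1 at −0.26. Of 17 replication genes 16 were compared, 10 lower and 6 higher, with 1 at least 2-fold higher and a median of −0.04. That gene was cye-1, for cyclin E, with dim values of 40.6 on the anatase array and 9.30 on the control array, a log2 difference of 1.16. Both asfl-1 and cye-1 reached the brightness limit on the anatase array alone, so a high value there was a condition of their being compared. The origin recognition gene orc-5 stood at 0.29, and the helicase genes mcm-3 and mcm-5 at 0.20 and −0.20.

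**Figure D4:**
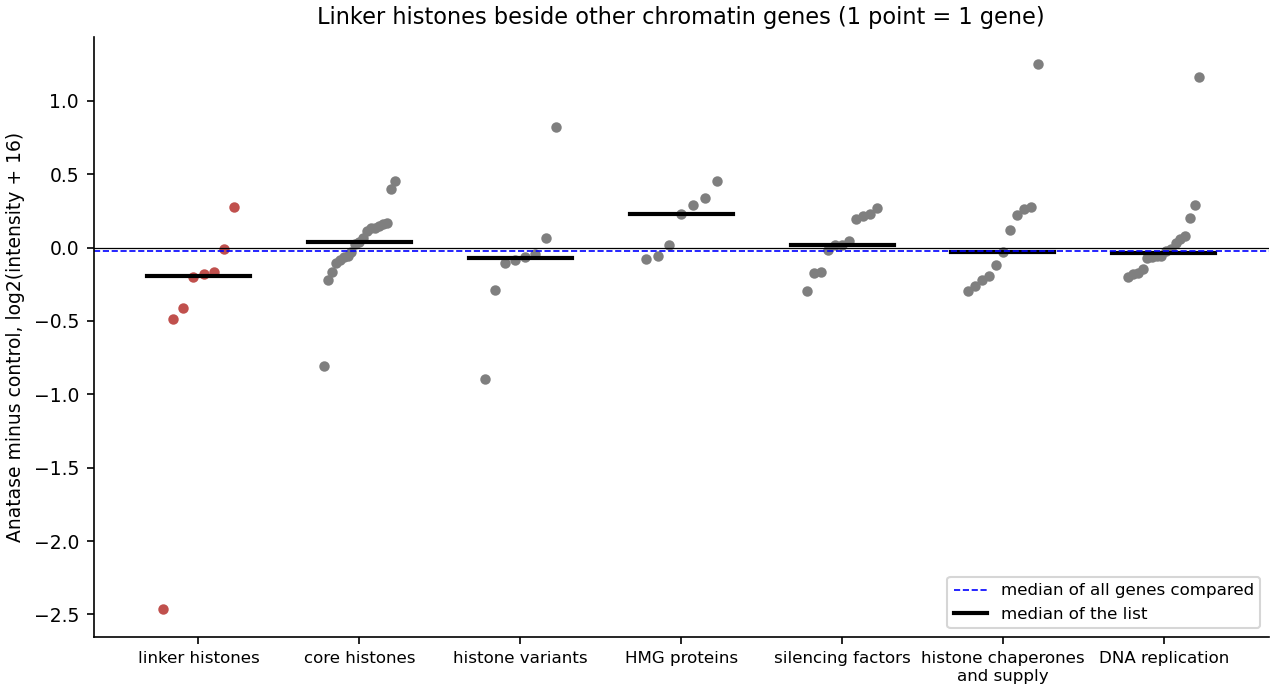
Log2 difference (anatase minus control) of each compared gene in the linker histone family (red) and 6 other chromatin lists (grey), 1 point a gene, with a black bar at the median of each list and a dashed line at the median of all genes compared. hil-6, at −2.47, is the lowest point shown; the list medians run from −0.19 for the linker histones to 0.23 for the high mobility group genes.

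No gene compared had values close to those of hil-6 on both arrays, which follows in part from the choice of the family on these same values. The 5 nearest, by distance between the pairs of log2 values on these 2 arrays, were T12B3.2, droe-8, F35F10.13, srlf-35 and ZK180.6, at distances of 0.71 to 0.85 log2 units. T12B3.2, the nearest, had an intensity of 43.8 on the anatase array and 155.7 on the control array, a log2 difference of −1.52. The other 4 differed by −1.29 to −1.38. Likeness over 2 arrays says little, since any gene of like brightness and difference qualifies.

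Genes beside the members on the chromosomes were read from the order of protein-coding genes in the RefSeq table, taking the nearest compared gene on each side. For hil-6 these were F59A7.5 and srab-23. F59A7.5, 3 genes away with 2 genes between that were not compared, had an intensity of 167.0 on the anatase array and 187.0 on the control array. srab-23, the next gene and of a chemoreceptor family, had dim values of 41.3 on the anatase array and 6.30 on the control array. Their log2 differences were −0.15 and 1.36. srab-23 reached the brightness limit on the anatase array alone, so it could be compared only because it was high there, and F59A7.5 is the one of this pair bright enough on both arrays. kola-3, beside hil-7, and Y73B6A.1, 2 genes away from hil-7, stood at 0.23 and 0.30. lron-8 and rnt-1, beside hil-5, stood at −0.00252 and −0.25. All 16 neighbours of the members ran from −0.90 for ztf-14, beside his-24, to 1.36 for srab-23, with a median of 0.10. Of them 7 lay lower and 9 higher, where 53.2% of all genes compared lay lower. Like srab-23, the neighbours F02D8.1, srv-24 and csp-2 reached the brightness limit on the anatase array alone, and C17H11.2 did on the control array alone. A high value on that array was a condition of their being compared, so nothing is read from this median or these counts. A further gene with the family name, hil-8, is not one of the members. It had dim intensities of 20.5 on the anatase array and 41.7 on the control array, a log2 difference of −0.66, and reached the brightness limit on the control array alone.

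Markers of the main tissues were read as a check on the worms. Of 78 markers in 8 lists, 75 had a value and 70 were compared, with 0 at least 2-fold lower and 2 at least 2-fold higher, the dim embryonic genes med-1 and end-3 at log2 differences of 1.04 and 1.02. Both reached the brightness limit on the anatase array alone. The sums given next are of the gene intensities of the compared markers. Beside the counts by sign, 53.2% of all genes compared lay lower and 46.8% higher. No marker was listed at 0, the lowest intensity being 1.5. Intestinal markers lay lower, 6 of 9, with a summed intensity of 55268 on the anatase array and 67182 on the control array. Most of that gap came from vit-5 and vit-6. They had intensities of 8216 and 24684 on the anatase array, against 14232 and 29653 on the control array. The other 3 of the 9, ges-1, ifb-2 and vit-2, lay higher. Epidermal markers lay lower in 9 of 9, with sums of 54441 on the anatase array and 57517 on the control array. Markers of the germline, where his-24 is known to act, had a median of 0.03 and sums of 13225 on the anatase array and 13179 on the control array. Sperm markers lay higher in 7 of 8, with sums of 52523 on the anatase array and 51366 on the control array. Neuronal markers lay higher in 7 of 8, of which unc-31 reached the brightness limit on the anatase array alone. The neuronal sums were 4923 on the anatase array and 4826 on the control array. Summed over every probe set of the measured neuronal markers the direction turned, with 9211 on the anatase array and 9502 on the control array. The 5 embryonic markers compared had sums of 312.9 on the anatase array and 228.6 on the control array, and 3 of them reached the brightness limit on the anatase array alone. Pharyngeal markers lay higher in 5 of 8, and muscle markers had a median of −0.00298. The part of these shifts in the linker histone values was not tested.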

How the data were processed

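Gene expression was measured from total RNA of worms with biotin-labelled cRNA on an Affymetrix array, per the labels' protocols. The authors deposited 1 linear intensity per probe set and array, using Transcriptome Analysis Console per the submitters' processing notes. Which version, summary method and scaling were used is not stated in the labels, and the median intensities of 117.8 (anatase) and 123.1 (control) lie close together. Scale and background treatment of the values therefore stay partly unknown.

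Of 22548 probe sets, 20766 name 1 gene, 887 several and 895 none here, and the first were used. Values were taken as log2(intensity + 16), a scale on which dim genes differ less, and averaged over the probe sets of a gene. Genes whose brighter array reached the 25th percentile were compared, 13606 of 17118. Shared probe sets are those whose identifiers mark a type that may also bind related transcripts. No test was made with 1 array per group. Counts took 2-fold. RefSeq (WBcel235) served for names and gene order only, and no sequences were used.

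The members and lists were chosen with earlier results of these data known. Named genes were the members, 6 genes fixed by name, the 4 largest differences of each chromatin list and the 5 genes nearest to hil-6. Genomic neighbours, probe sets of several core histones, hil-8, and the other genes named among the markers were added after seeing the data. Steps were tested on simulated data. Python 3.11.15, numpy 2.4.6, pandas 2.3.3, statsmodels 0.14.6 and matplotlib 3.10.9 were used. The alternatives were pseudocounts of 1 and 64, median centring, loess (span 30%), quantile normalization, the brightest probe set, no shared probe sets, other brightness filters and thresholds of 1.5-fold and 3-fold.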

Additional observations from a re-analysis of the deposited data

How the results depend on the processing

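No paired analysis was possible because there is only 1 anatase and 1 control array. hil-6 stayed lower on the anatase array in all 9 alternatives, at −2.92 with a pseudocount of 1 and −1.71 with 64. It was the 1 member at least 2-fold lower under each of them, also at 1.5-fold and 3-fold, and 0 members were past any of these thresholds upward. The choices of probe sets and brightness filter left its value unchanged, since it has 1 probe set, not of a shared type. As the family was picked on hil-6, these alternatives lend its low value no support. The linker histone median lay between −0.20 with loess and −0.14 with centring over all 10 alternatives, of which leaving out hil-6 (−0.18) was added after seeing the data. The core histone median lay between −0.11 without shared probe sets, where its sign turned, and 0.09 with centring. Among the other 7 members, hil-4 turned sign with centring (0.05), his-24 ranged from −0.19 to −0.06, and under the 9 alternatives (8 for hil-7) none moved by more than the spread of 1 probe set. For hil-3, his-24 and hil-4 that spread is larger than the whole difference, so this says little about them. Over all genes compared, 418 lay at least 2-fold lower and 226 higher, so 35.1% of them were higher. The share was 41.2% with centring, 48.7% with loess (304 lower, 289 higher) and 48.5% with quantile normalization (309 lower, 291 higher). A pseudocount of 1 made this 803 lower and 423 higher, and one of 64 made it 24 lower and 12 higher. Filtering at the median brightness left 54 lower and 25 higher. A threshold of 1.5-fold gave 1303 lower and 638 higher, and one of 3-fold gave 76 lower and 23 higher. Dim signal limits the size of the hil-6 difference, and 1 array per group leaves variation between cultures unmeasured.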
